A study of Mus musculus with 12 samples.

Results

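Gene expression on Day 4 of retinoic acid (RA) differentiation was compared with Day 2 in the shCTSL line, mouse embryonic stem cells (mESCs) in which an shRNA lowers the mRNA of cathepsin L, a lysosomal cysteine protease that also cuts histone H2A in the nucleus. The comparison takes 4 of the 12 RNA-seq libraries of the series, 2 libraries of shCTSL embryoid bodies (EBs) on Day 2 and 2 on Day 4, chosen by their labels alone. It asks which genes change in the later step of differentiation when cathepsin L is low, and the same step in the shSC line, which carries a scrambled shRNA, is given beside it. All libraries come from CCE-Nanog-GFP mESCs, a line in which GFP reports Nanog, grown with LIF and sorted for GFP before use. Both lines received their shRNA by lentivirus and were selected with puromycin. The undifferentiated cells are the Day 0 libraries of each line, and the EBs were made without LIF, with all-trans RA and under rotation, for 2 or 4 days. A single shCTSL line was sequenced, so the properties of that line and the effect of the shRNA cannot be told apart, and the labels do not say which shRNA it carries. Each group has 2 biological replicates.

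RA enters the nucleus, binds RAR and RXR receptors on DNA and switches on target genes within hours, among them the Hox genes and its own degrading enzymes of the Cyp26 family. In EBs it is known for driving mESCs out of pluripotency into neural, endodermal and mesodermal cells, which then form side by side in one aggregate. The libraries were made from whole EBs, so a lower value can mean fewer cells of a type or less RNA per cell, and the data cannot tell these apart.

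The 12 libraries hold 11171111 to 27155553 counted reads, and the 4 compared here hold 15415364 to 21213919. Values are given as normalized CPM, read counts scaled to one library size, replicate 1 before replicate 2. Ctsl (chr13:64464522-64471614 in mm9, minus strand), the gene that the shRNA targets, was at 211 and 155 CPM in the shCTSL Day 2 libraries and at 257 and 253 CPM in the Day 4 libraries, against 369 and 391 and 484 and 423 CPM in shSC. Every shCTSL library was below both shSC libraries of the same day. The 22 pluripotency genes sum to 10072 and 9954 CPM in the shCTSL Day 0 libraries and to at most 2338 CPM in the Day 2 and Day 4 libraries. The 5 fibroblast genes sum to 22.3 and 25.6 CPM on Day 2 and to 404 and 382 CPM on Day 4, of which Col3a1 made up 2.40 and 2.3 CPM and 351 and 328 CPM, while the fibroblast marker Thy1 was at 1.23 and 0.894 and 1.52 and 1.62 CPM. Of the 5 fibroblast genes 3 agreed higher. Of the 5 trophoblast markers, Elf5 and Tpbpa were too low to be tested, 2 agreed higher and 1 agreed lower. The part of other cell types in the results below was not tested.

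The shCTSL Day 2 libraries disagreed with each other far more than any other pair. Among the 15532 genes tested, 39.3% differed by at least 1.5-fold between these libraries, against 5.11% to 13% between the replicates of the other 5 groups. The chi-square per degree of freedom between their counts was 127, against 2.51 to 9.99 elsewhere. The difference followed the summed exon length of a gene: the median of replicate 1 minus replicate 2 fell from 0.84 on the log2 scale for 695 genes of up to 1000 bases to -0.55 for 3124 genes over 6000 bases. Across 15133 genes with a length, Pearson's r between log2 length and that difference was -0.50 and Spearman's rho was -0.57, a description across genes of a single pair of libraries. Replicate 1 was the library that departed: against the mean of the shSC Day 2 libraries its median went from 0.81 to -0.55 over the same lengths, while that of replicate 2 stayed between -0.04 and 0.02. The Day 4 libraries differed the other way and by less, from -0.18 to 0.14. The ribosomal RNA gene Rn45s took 3.43% of the counts in Day 2 replicate 1, 0.553% in replicate 2, and 0.376% and 0.228% on Day 4.

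Single genes differed more. Clcn5, a chloride and proton exchanger of endosomes, was at 5.23 and 63.1 CPM on Day 2 and 50.6 and 27.1 CPM on Day 4. Against replicate 1 it would be higher on Day 4 and against replicate 2 lower, and it was not called, with a log2 fold change of 0.17 ± 0.73. Megf9 was at 0.923 and 8.43 CPM on Day 2 and 13.9 and 9.20 CPM on Day 4, so the groups did not overlap, but the Day 4 mean was 3.57 above replicate 1 and 0.42 above replicate 2 on the log2 scale. Cdh1, which encodes E-cadherin, had 398 and 646 CPM on Day 2 and 513 and 494 CPM on Day 4, with both Day 4 values between those of Day 2.

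**Figure D1:**
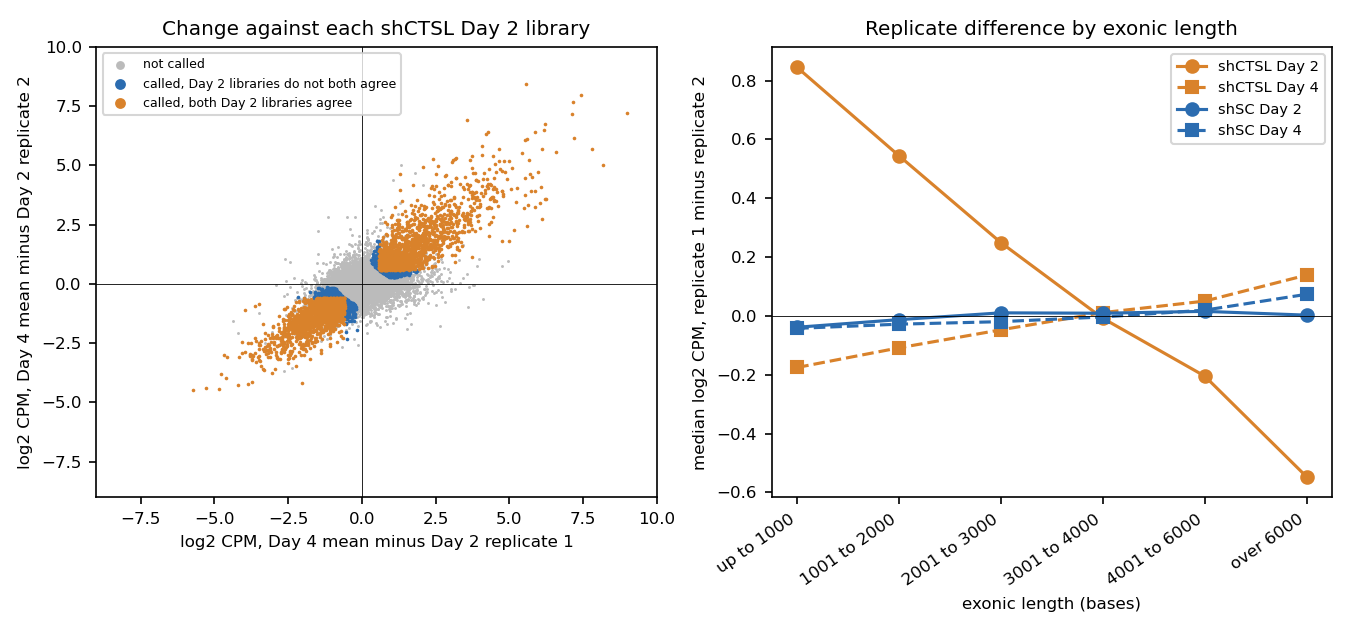
Left, log2 CPM of the Day 4 mean minus shCTSL Day 2 replicate 1 (x axis) and minus replicate 2 (y axis), 1 point per gene tested; both axes share the Day 4 mean. Right, the median log2 CPM of replicate 1 minus replicate 2 by summed exon length in bases, for the Day 2 and Day 4 groups of both lines. The shCTSL Day 2 curve runs from 0.84 to -0.55 and that of shCTSL Day 4 the other way, from -0.18 to 0.14. Those of shSC lie between -0.04 and 0.07.

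Calls rest on edgeR's quasi-likelihood test over all genes and ask for both an adjusted p below 0.05 and a difference of 1.5-fold or more. A called gene was said to agree when both Day 4 libraries lay beyond both Day 2 libraries and the Day 4 mean differed from each Day 2 library by at least 1.5-fold in that direction. Of 15532 genes tested, 3630 (23.4%) were called, 1708 higher (11%) and 1922 lower (12.4%) on Day 4. Both Day 2 libraries agreed on 2800 of them (18%), 1364 higher (8.78%) and 1436 lower (9.25%), and these shares are the background for each count of members below. The agreed share of the called genes ran from 71.1% to 82.6% over the 6 length classes, and 344 genes called higher and 486 called lower were left out. The direction of the agreed genes still went with length. Of 695 genes of up to 1000 bases 35 agreed higher and 67 lower, and of 3124 over 6000 bases 326 and 184. In shSC the median log2 fold change also rose with length, from -0.13 to 0.13. The background shares do not allow for length. Agreement was asked of each Day 2 library, so a refit without either of them is no separate check of the 2800. The groups did not overlap for 8495 genes (54.7%), so separation of the groups on its own marks little. The median log2 fold change of all genes tested was -0.02.

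Among the genes of RA signaling, both RA carriers and 2 of the degrading enzymes fell while 2 synthesis enzymes rose. Of the 19 genes of the pathway tested, 3 agreed higher and 4 agreed lower, with a median log2 fold change of -0.20. Aldh1a2 (chr9:71063596-71144050), the enzyme that oxidizes retinaldehyde to RA in the embryo, rose from 1.35 and 1.28 CPM to 60.2 and 59.5 CPM, and its log2 fold change was 5.51 ± 0.21 (SE; adjusted p = 3.7e-07), a ratio of 45.4. Rdh10, which makes retinaldehyde from retinol, rose from 11.9 and 12.1 to 31.4 and 26.8 CPM. Both genes agreed, and the agreement rule itself asks that each Day 4 library lie above each Day 2 library. Cyp26a1 (chr19:37772298-37776018), the main RA hydroxylase, fell from 1842 and 1477 CPM to 685 and 673 CPM, with a log2 fold change of -1.29 ± 0.15 (adjusted p = 2.2e-04). Cyp26c1 of the same family fell from 18.2 and 18.7 to 9.09 and 8.61 CPM. Cyp26b1, the third hydroxylase, was at 269 and 456 CPM on Day 2 and 522 and 479 CPM on Day 4 and was not called. Crabp2, which carries RA to the nucleus, fell from 202 and 124 to 46.2 and 53.8 CPM, a log2 fold change of -1.70 ± 0.23. Crabp1, the other carrier, fell from 37.8 and 21.1 to 9.96 and 13.6 CPM, a call that was lost when Day 4 replicate 1 was omitted (-1.11, adjusted p = 0.064). Among the receptors, Rarb (chr14:17263356-17651381), itself a direct RA target, rose from 75.5 and 82.1 CPM to 179 and 167 CPM (1.14 ± 0.12, adjusted p = 1.2e-04), whereas Rara was at 123 and 144 CPM on Day 2 and 122 and 120.3 CPM on Day 4 and was not called. In shSC the log2 fold changes were 5.59 for Aldh1a2, -1.11 for Cyp26a1 and 1.22 for Rarb.

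Cyp26a1 and Rarb moved in opposite directions and their promoters hold the same kind of receptor motif, so both are shown. The letters searched, on both strands, were GTTCA, then any 5 bases, then AGTTCA, a direct repeat of the kind that RAR and RXR bind. It occurs in 11 of 27025 genes with a promoter in the RefSeq table (0.0407%, 250 bases before to 50 after the start, GRCm38.p6). Of the 11778 genes tested with a promoter there 4 hold it, and of the 2029 agreed genes 2 do. A second spelling, AGGTCA on each side of any 5 bases, occurs in 3 genes (0.0111%) and in no agreed gene. Capitals mark the match, which lies on the opposite strand in Cyp26a1 and ends 16 bases before the start, and on the gene's own strand in Rarb, ending 36 bases before it. A match describes the letters and is not evidence of binding.
Cyp26a1, chr19:37697558-37697857, plus strand: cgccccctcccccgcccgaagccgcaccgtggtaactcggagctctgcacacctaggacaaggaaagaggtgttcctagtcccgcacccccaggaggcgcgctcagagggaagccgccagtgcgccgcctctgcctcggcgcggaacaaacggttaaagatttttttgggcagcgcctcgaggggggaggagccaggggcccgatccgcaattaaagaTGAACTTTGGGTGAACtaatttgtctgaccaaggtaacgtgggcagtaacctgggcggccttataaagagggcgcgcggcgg
Rarb, chr14:16575427-16575726, minus strand: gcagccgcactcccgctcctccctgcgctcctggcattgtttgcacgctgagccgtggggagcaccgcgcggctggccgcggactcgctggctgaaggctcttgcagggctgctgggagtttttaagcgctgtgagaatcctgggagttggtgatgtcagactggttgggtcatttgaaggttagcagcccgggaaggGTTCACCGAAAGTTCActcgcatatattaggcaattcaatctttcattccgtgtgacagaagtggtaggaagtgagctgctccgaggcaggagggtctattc

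Genes of the pluripotent state kept falling. Of 22 pluripotency genes tested, 14 agreed lower and 1 agreed higher, with a median log2 fold change of -1.17 (-1.30 in shSC). Pou5f1 (chr17:35642982-35647721), which encodes OCT4, was at 388 and 243 CPM on Day 2 and 68.7 and 92.8 CPM on Day 4. Its Day 2 libraries differed by 0.68 on the log2 scale, and the log2 fold change was -1.96 ± 0.21 (adjusted p = 1.1e-04). The gene agreed, and the agreement rule itself asks that both Day 2 libraries lie above both Day 4 libraries. Sox2 (chr3:34548927-34551383), the partner of OCT4 on DNA, fell from 162 and 169 to 52.1 and 59.3 CPM (-1.57 ± 0.12, adjusted p = 1.3e-05). Nanog (chr6:122657507-122664651), the gene that the GFP of this line reports, fell from 98.9 and 96.5 to 45.6 and 47.9 CPM (-1.06 ± 0.09, adjusted p = 2.9e-05) with Day 2 libraries that were nearly equal. The steepest falls were those of Utf1, a chromatin-bound factor of mESCs, from 62.6 and 40.2 to 5.90 and 8.12 CPM, and of Dppa4, from 67.6 and 52.1 to 12.8 and 15.3 CPM, with log2 fold changes of -2.87 ± 0.25 and -2.09 ± 0.15. Nr0b1 fell from 12.1 and 6.77 to 2.44 and 2.85 CPM. Klf5 alone agreed higher, from 45.8 and 53.0 to 90.2 and 80.6 CPM, a change of 0.79 ± 0.14. Klf4, at 23.6 and 24.8 CPM on Day 2 and 26.9 and 30.4 CPM on Day 4, was not called.

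The genes of the formative state, which mESCs pass through on leaving the naive state, fell with them. Of 13 tested, 8 agreed lower and 1 higher, with a median of -1.20 (-1.15 in shSC). Tcf15, a helix-loop-helix factor of primed cells, fell from 48.0 and 26.1 to 4.17 and 4.57 CPM (-3.07 ± 0.29, adjusted p = 4.4e-05). Sox3, a SoxB1 relative of Sox2, fell from 46.7 and 43.9 to 7.42 and 7.48 CPM, with a log2 fold change of -2.60 ± 0.11. Etv5, an FGF-responsive ETS factor, fell from 135 and 211 to 35.7 and 35.5 CPM. Its Day 2 values differ in the direction opposite to those of Pou5f1. That both lie above Day 4 is again asked by the agreement rule. Dnmt3a, a de novo DNA methyltransferase, rose from 225 and 273 to 451 and 391 CPM, a change of 0.76 ± 0.12 that was not called with length offsets (0.46).

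Nodal signaling, which patterns the primitive streak, fell at its ligand and at its inhibitors. Of the 17 streak genes, 14 could be tested, 6 of which agreed lower and 1 higher, with a median of -1.07 (-0.88 in shSC). The ligand Nodal (chr10:60880720-60888086) was at 95.2 and 94.6 CPM on Day 2 and 21.1 and 25.8 CPM on Day 4 (-2.02 ± 0.14, adjusted p = 8.3e-06). Its target and inhibitor Lefty2 fell from 198 and 165 to 17.5 and 18.1 CPM (-3.35 ± 0.12, adjusted p = 3.7e-07) and Lefty1 from 405 and 214 to 33.6 and 37.9 CPM. These genes agreed, and the agreement rule itself asks that all Day 2 values exceed all Day 4 values. Cdx1, a posterior homeobox gene and RA target, fell from 75.1 and 49.2 to 9.74 and 10.3 CPM. Eomes, a T-box factor of the streak, fell from 16.1 and 21.8 to 8.61 and 8.07 CPM. Evx1 went the other way, but from 1 read in the Day 2 libraries to 41 on Day 4, a ratio of 42.0 (95% interval of the counts, 7.13 to 1699).

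Most Hox genes called higher lay at the far end of the clusters. Hox genes are numbered from the 3' end, where RA acts first, and the paralogues of high number mark the posterior body. Of 39 genes 35 were tested, 6 agreed higher and 8 lower, and the median was 0.07. Of the 12 genes of paralogues 1 to 4 none was called higher and 4 were called lower, with a median of -0.10, and 6 had positive log2 fold changes. Of the 15 genes of paralogues 5 to 9, 1 was called higher and 5 lower, with a median of -0.46. All 8 genes of paralogues 10 to 13 had positive log2 fold changes, from 0.33 to 2.38, and 5 of them were called, with a median of 1.23. Hoxd10 and Hoxd11 were at a low level, with means of 0.32 and 0.30 CPM on Day 2 and 0.80 and 1.06 CPM on Day 4. In shSC their log2 fold changes were -0.24 and -0.25, while those of the rest of the 8 were positive. Without Day 2 replicate 2, 12 Hox genes were called higher and 12 lower. Hoxb1 (chr11:96227066-96229570), the paralogue with a classical RA enhancer, fell from 215 and 149 to 30.5 and 37.2 CPM (-2.43 ± 0.25, adjusted p = 8.7e-05). Hoxd1 fell from 24 and 26.7 to 8.39 and 8.61 CPM. In the middle of the clusters Hoxb8 fell from 186 and 201 to 79.4 and 89.1 CPM and Hoxc6 rose from 4.98 and 5.87 to 14 and 14.5 CPM. At the far end, Hoxb13 (chr11:96055630-96058761) rose from 95.6 and 57.3 to 181 and 197 CPM (1.31 ± 0.28, adjusted p = 0.0066). Hoxd13 rose from 3.32 and 3.32 to 7.79 and 6.89 CPM. Hoxa13 rose at a low level, from 0.308 and 0.255 to 1.62 and 1.33 CPM, against 0.299 and 0.306 and 0.486 and 0.555 CPM in shSC, where it was not called.

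**Figure D2:**
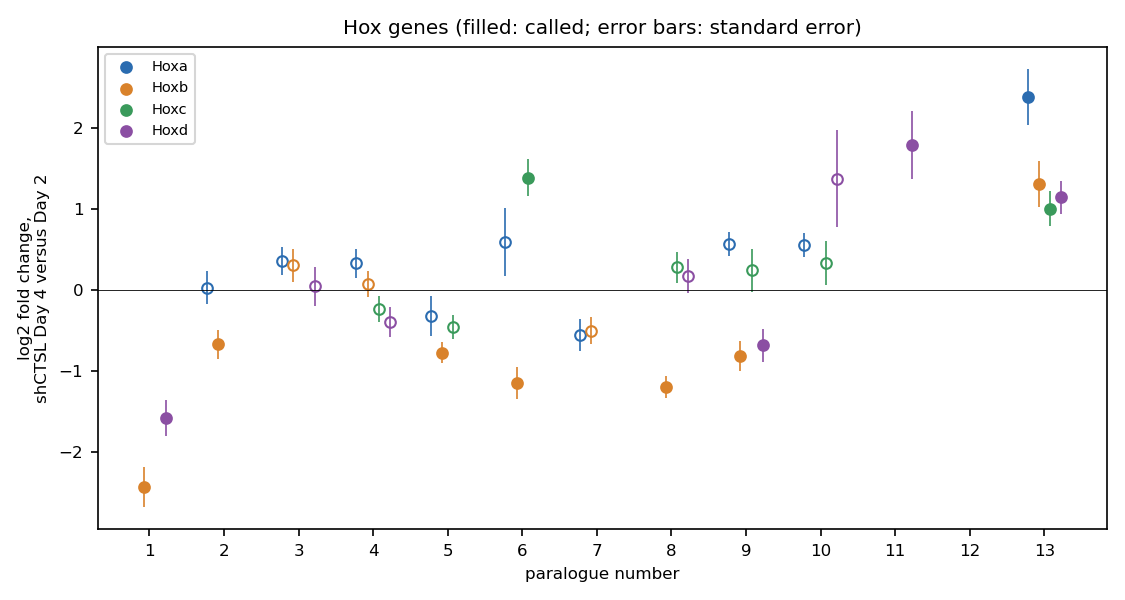
Log2 fold change of the Hox genes tested, 1 left out, shCTSL Day 4 versus Day 2, by paralogue number and coloured by cluster, with the standard error of the fit; filled points are called. Paralogue 1 reaches down to -2.43, and paralogues 10 to 13 all lie above 0.

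Neural genes did not move as a block. Of 13 progenitor genes tested of 17, 3 agreed higher and 2 lower, with a median of 0.51. The median was 0.40 without Day 2 replicate 1 and 0.38 without replicate 2. Neurog2, a proneural factor, had no read in either Day 2 library and 23 reads on Day 4, at least 7.85-fold higher with 3 reads as the floor over the group. Sox1, a marker of early neural cells, rose from 14.3 and 14.4 to 33.1 and 32.1 CPM (1.18 ± 0.14), with Day 2 libraries that were nearly equal. Pax6 (chr2:105509053-105543317), a regulator of the eye and the ventral neural tube, fell from 96.6 and 80.1 to 24.1 and 31.4 CPM (-1.67 ± 0.18, adjusted p = 1.2e-04). Irx3 fell from 64.3 and 64.4 to 28.5 and 31.6 CPM, a call lost without Day 4 replicate 1 (-1.03, adjusted p = 0.062). Nes, which encodes the progenitor filament nestin, was at 46.2 and 38.3 CPM on Day 2 and 58.4 and 62.0 CPM on Day 4. Its groups did not overlap, but its log2 fold change of 0.51 ± 0.13 was under the 1.5-fold limit. Of the 12 neuron genes tested of 14, none agreed higher and 4 agreed lower, with a median of -0.29 that became 0.15 without Day 2 replicate 2. Stmn2, a microtubule regulator of growing axons, fell from 23.4 and 11 to 4.01 and 4.82 CPM (-1.94 ± 0.31).

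Most genes of lateral mesoderm rose. Of the 16 lateral mesoderm and cardiac genes tested of 17, 10 agreed higher and 4 lower, with a median of 1.71 (1.44 in shSC). Hand1 (chr11:57642207-57646320), a factor of lateral mesoderm and heart, rose from 0.431 and 0.894 to 13.3 and 12.3 CPM (4.19 ± 0.35, adjusted p = 2.5e-05). Gata5 rose from 3.94 and 4.47 to 39.2 and 36.8 CPM, Foxf1, a factor of splanchnic mesoderm, from 4.18 and 5.87 to 46.6 and 43.1 CPM, and Isl1, of the second heart field, from 2.15 and 2.21 to 15.8 and 15.3 CPM. The 4 that fell were 2 contractile genes and 2 homeobox factors. Myh6, the atrial myosin heavy chain, fell from 7.51 and 6.0 to 0.812 and 0.885 CPM, and Myl7, an atrial light chain, from 16.7 and 7.45 to 2.60 and 2.07 CPM. Nkx2-5, a cardiac factor, fell from 11.9 and 9.02 to 5.14 and 5.26 CPM, a call lost without either Day 4 library, and Meox1, a factor of somites, from 80.7 and 69.0 to 34.8 and 38.1 CPM. Actc1, cardiac actin, did not fall with these contractile genes. It rose at a low level, from 0.185 and 0.170 to 1.95 and 1.82 CPM, a call lost with voom quality weights (adjusted p = 0.23). The smooth muscle actin gene Acta2 (chr19:34315580-34329826) rose from 4.31 and 4.30 to 115 and 119 CPM (4.76 ± 0.21, adjusted p = 9.1e-07), above the shSC Day 4 values of 62.4 and 45.4 CPM.

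The steepest rises included matrix and signaling genes of mesenchyme. Col3a1 (chr1:45368383-45406551), a fibrillar collagen, rose from 2.40 and 2.3 to 351 and 328 CPM, with a log2 fold change of 7.17 ± 0.26 (adjusted p = 3.7e-07), a ratio of 144. Its Day 2 libraries were nearly equal, at a summed exon length of 8393 bases. Cxcl12 (chr6:117118553-117131385), a chemokine that guides migrating cells, rose from 1.05 and 2.21 to 172 and 144 CPM (6.53 ± 0.30). Fat4, a giant cadherin, rose from 0.738 and 0.596 to 66.1 and 46.6 CPM (6.41 ± 0.31), and Rgs5, a G protein regulator of pericytes, from 0.308 and 0.426 to 23.4 and 23.1 CPM (5.93 ± 0.24). Col1a1 rose from 6.03 and 6.68 to 37.5 and 37.9 CPM, while Col1a2, the other chain of type I collagen, was at 11.3 and 13.7 CPM on Day 2 and 11.3 and 10.9 CPM on Day 4 and was not called. Outside mesenchyme, the hormone gene Sst (chr16:23889667-23890930), which encodes somatostatin, rose from 0.677 and 0.468 to 53.4 and 51.9 CPM (6.55 ± 0.32). Kcnj2, an inward rectifier potassium channel, rose from 0.0615 and 0.383 to 24.1 and 17.8 CPM. Sprr1a, a cornified envelope protein, went from 2 reads on Day 2 to 616 on Day 4, a ratio of 315 (95% interval of the counts, 87.0 to 2611).

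The steepest agreed falls were of hormone, receptor and patterning genes. Pyy (chr11:101967990-101969146), which encodes the gut hormone peptide YY, fell from 97.8 and 40.2 to 1.30 and 2.51 CPM (-5.16 ± 0.50, adjusted p = 2.0e-04). Trh, the thyrotropin-releasing hormone gene, fell from 53.5 and 67.0 to 5.58 and 5.21 CPM (-3.48 ± 0.15). Sp8, a zinc finger factor of limb and brain patterning, fell from 16.1 and 17.1 to 0.650 and 1.13 CPM (-4.2 ± 0.25), and Chrna3, a nicotinic receptor subunit, from 20.8 and 24.7 to 2.22 and 1.82 CPM. The Day 2 libraries of Pyy differed by 1.28 on the log2 scale and those of Sp8 by -0.09. That the Day 4 values of these genes lay below both is asked by the agreement rule itself.

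**Figure D3:**
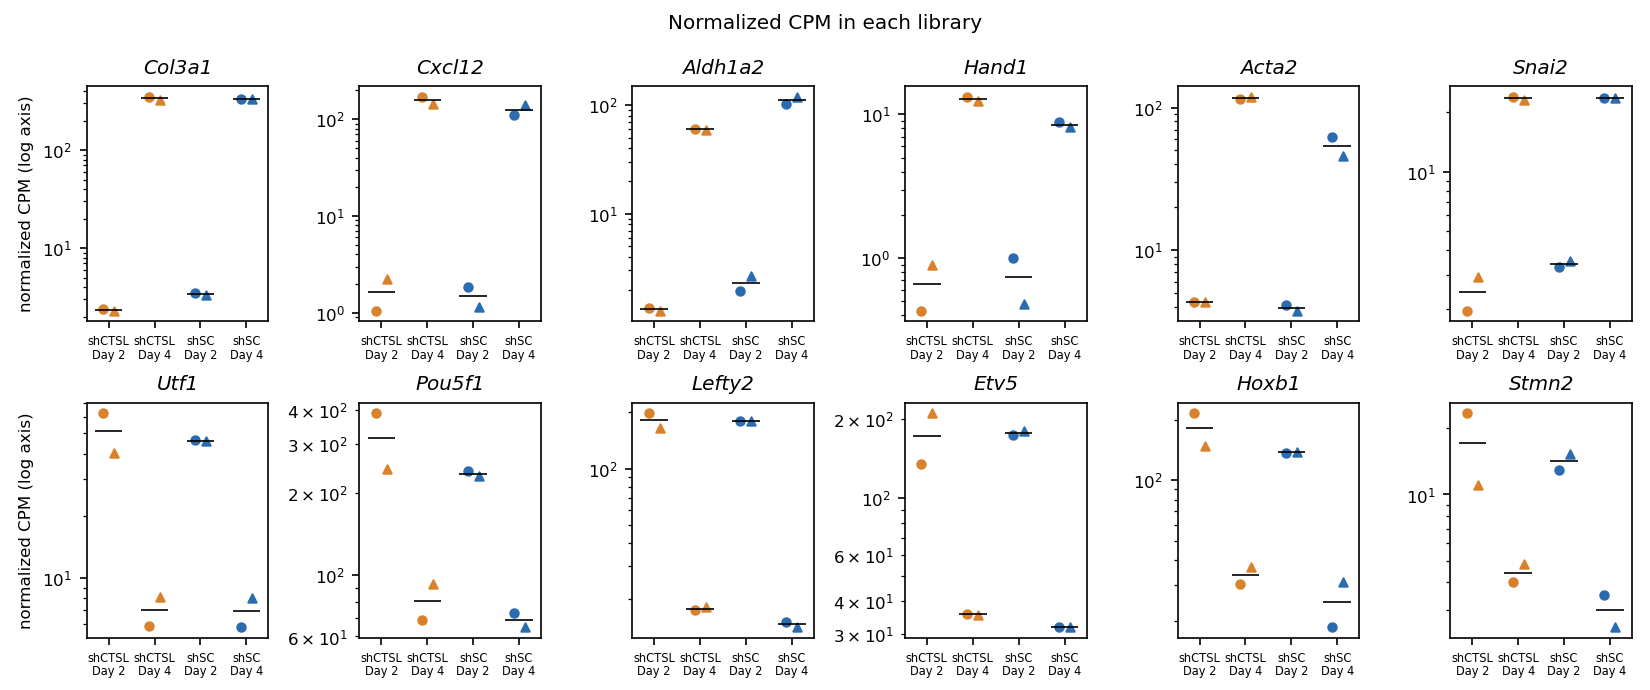
Normalized CPM of 12 genes in each Day 2 and Day 4 library of the shCTSL and shSC lines on log axes that differ between panels; circles are replicate 1, triangles replicate 2 and bars the group means. The genes shown agreed, and the agreement rule itself asks that both shCTSL Day 4 libraries lie beyond both shCTSL Day 2 libraries. For Acta2 the shCTSL Day 4 libraries lie above those of shSC.

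Factors of the epithelial to mesenchymal transition rose, and so did epithelial genes of the same list. Of 13 adhesion and transition genes tested, 9 agreed higher and none lower, with a median of 1.02 (1.08 in shSC). Snai2 (chr16:14705945-14709488) rose from 1.97 and 2.94 to 24 and 23.2 CPM (3.24 ± 0.20, adjusted p = 4.1e-06), and its relative Snai1, which represses E-cadherin, from 9.85 and 10.4 to 44.0 and 41.6 CPM. Zeb2 rose from 6.65 and 12.6 to 64.4 and 50.2 CPM and Twist1 from 11.1 and 8.17 to 43.6 and 44.2 CPM. The 9 comprise 6 of the 7 transition and mesenchymal genes and 3 of the 6 epithelial genes. Cldn7, a tight junction gene and an epithelial member of the list, rose from 14 and 7.70 to 38.3 and 43.0 CPM (1.92 ± 0.23). The tight junction gene Cldn6 rose from 69.8 and 63.7 to 135 and 135 CPM, and Grhl2, an epithelial transcription factor, from 3.69 and 4.55 to 8.82 and 8.02 CPM. Epcam, an epithelial surface protein, was at 65.4 and 44.3 CPM on Day 2 and 37.7 and 43.1 CPM on Day 4 and was not called.

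Endothelial and blood genes rose in the shCTSL line. Of 18 genes tested of 20, 11 agreed higher and 1 lower, with a median of 1.06. With voom quality weights 5 of the 18 were called higher, and with the 4 libraries alone 5 of 17. In shSC 5 of the 18 were called higher and 3 lower, with a median of 0.32. The 18 genes sum to 251 and 252 CPM on Day 2 and 659 and 581 CPM on Day 4 in shCTSL. In shSC they sum to 407 and 431 CPM on Day 2 and 691 and 707 CPM on Day 4, above both shCTSL libraries on each day. The difference between the lines passed the adjusted threshold for none of the 18, and 7 had an unadjusted p under 0.05 (4.85% of all genes tested did): Kdr, Pecam1, Cdh5, Tal1, Fli1, Emcn and Sox18. Cdh5 (chr8:106625525-106668402), which encodes VE-cadherin of endothelial junctions, rose from 6.22 and 10.4 to 55.9 and 43.5 CPM (2.56 ± 0.23, adjusted p = 3.9e-05), against 17.5 and 21.0 rising to 68.6 and 63.7 CPM in shSC. On each day both shCTSL libraries were below both shSC libraries. Kdr (chr5:76328852-76374483), the VEGF receptor also called Flk1, rose from 25.3 and 52.5 to 103 and 82.4 CPM (1.25 ± 0.26, adjusted p = 0.0056). In shSC it was at 93.7 and 97.1 CPM on Day 2 and 109 and 109 CPM on Day 4. The shCTSL Day 2 libraries of Kdr differed by -1.05 on the log2 scale, and with replicate 1 omitted the log2 fold change was 0.80, while with replicate 2 omitted it was 1.87, and the call was lost with the 4 libraries alone (adjusted p = 0.12). Tie1, an orphan receptor of endothelium, rose from 13.3 and 10.4 to 61.5 and 51.6 CPM (2.26 ± 0.16), and Gata2, a factor of blood and endothelial precursors, from 29.8 and 34.8 to 194 and 187 CPM (2.56 ± 0.15). Pecam1, a junctional adhesion molecule, rose from 11.3 and 14 to 36.5 and 33.6 CPM, and Erg, an ETS factor, from 1.48 and 3.02 to 9.42 and 7.82 CPM. Etv2, the ETS factor that starts the hemato-endothelial program and is then switched off, fell from 14.9 and 8.51 to 2.0 and 2.26 CPM (-2.44 ± 0.29), as it did in shSC from 18.3 and 19.6 to 1.72 and 2.64 CPM. Tal1, a factor of blood precursors, was at 8.25 and 10.7 CPM on Day 2 and 14.6 and 9.84 CPM on Day 4 and was not called, whereas in shSC it fell from 25.6 and 25.8 to 12.3 and 13.5 CPM.

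**Figure D4:**
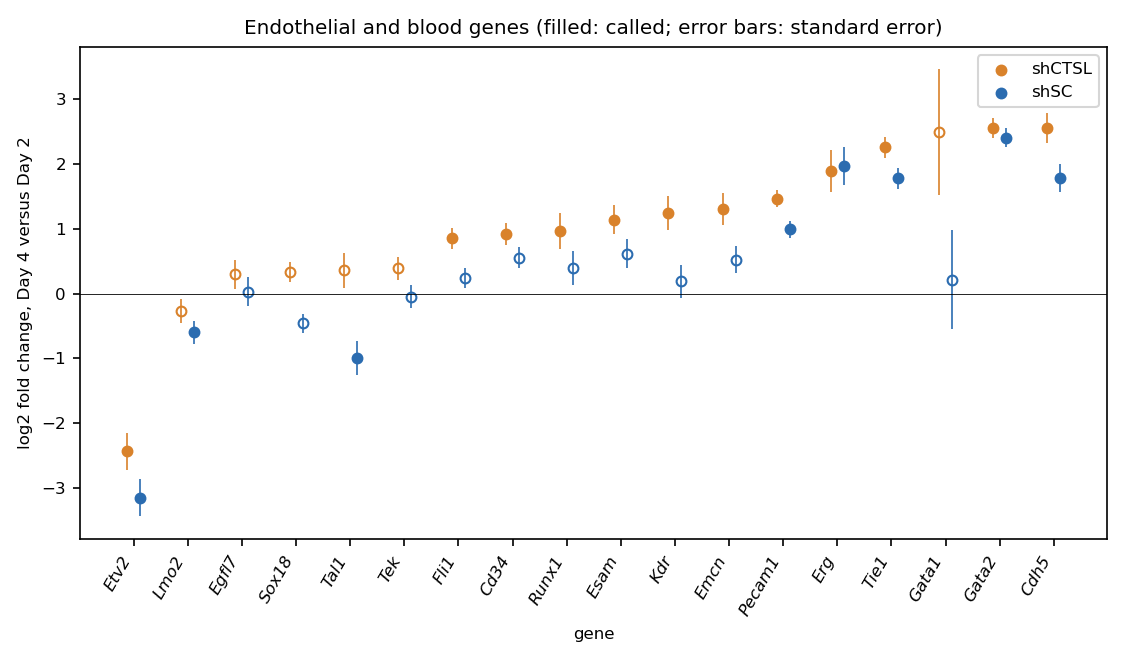
Log2 fold change, Day 4 versus Day 2, of the 18 endothelial and blood genes tested in shCTSL and in shSC, with the standard error of the fit; filled points are called. Of the shCTSL points 11 are called above 0, and Etv2 is called below 0 in both lines.

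Part of the visceral endoderm proteins rose, and so did some endoderm factors. Of 15 protein genes tested of 16, 7 agreed higher and 1 lower, with a median of 0.74 (0.47 in shSC). Afp (chr5:90919740-90937933), alpha-fetoprotein, rose from 3.63 and 1.92 to 51.0 and 48.5 CPM (4.2 ± 0.31, adjusted p = 2.4e-05). Apoa1 rose from 0.923 and 0.298 to 11.5 and 12.4 CPM, Rbp4, the retinol carrier, from 5.54 and 4.85 to 69.1 and 73.6 CPM, and Ttr, transthyretin, from 16.2 and 8.0 to 106 and 105 CPM. Of the 15 genes, 6 had negative log2 fold changes and 2 of these were called, and the summed level of the list went from 893 and 774 CPM to 899 and 871 CPM. Trf, transferrin, alone agreed lower and fell from 77.3 and 59.2 to 11.7 and 15.2 CPM (-2.34 ± 0.17). Of the 10 endoderm factors, 3 agreed higher and 1 lower, with a median of 0.25, and 5 were called higher without Day 2 replicate 2. Gata4 rose from 22.1 and 25.9 to 83.6 and 73.2 CPM (1.71 ± 0.13), Gata6 from 72.2 and 91.0 to 189 and 175 CPM (1.15 ± 0.15, adjusted p = 3.8e-04), and Hnf4a from 3.82 and 4.09 to 9.20 and 7.38 CPM. Foxa2, a factor of definitive endoderm and node, fell from 37.7 and 37.5 to 24.2 and 22.7 CPM (-0.68 ± 0.11), a call lost with length offsets (-0.58), with voom quality weights (adjusted p = 0.071) and with the 4 libraries alone (adjusted p = 0.088).

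Ligands of the BMP and Wnt pathways changed together with their inhibitors. Of 15 BMP genes tested, 6 agreed higher and 2 lower, with a median of 0.76. Bmp5 rose from 0.369 and 0.936 to 21.9 and 21.9 CPM (4.97 ± 0.27, adjusted p = 2.5e-06), Bmp6 from 4.62 and 4.6 to 13.2 and 9.59 CPM, and Smad6, a target and inhibitor of BMP signaling, from 55.3 and 50.5 to 115 and 119 CPM. The BMP antagonist Grem1 went from 1 read on Day 2 to 69 on Day 4, a ratio of 70.7 (95% interval of the counts, 12.3 to 2831). Msx1, a BMP-responsive homeobox gene, fell from 16.9 and 33.5 to 5.63 and 5.31 CPM (-2.21 ± 0.31). Of 15 Wnt genes tested, 7 agreed higher and 4 lower, with a median of 0.68. Wnt5a, a noncanonical ligand, rose from 1.29 and 2.68 to 21.4 and 18.0 CPM (3.25 ± 0.29), Rspo3, an enhancer of Wnt signaling, from 2.22 and 1.57 to 10.6 and 12.4 CPM, and Sfrp1, a secreted inhibitor, from 127 and 118 to 354 and 345 CPM. Among those that fell, Notum, which removes the lipid of Wnt ligands, went from 13.8 and 10.2 to 1.73 and 2.56 CPM and the inhibitor Sfrp5 from 269.6 and 158 to 79.2 and 93.2 CPM. Of the 10 immediate early genes, 6 agreed higher and 1 lower, but 1 was called higher with voom quality weights and 3 with the 4 libraries alone. Fos rose from 1.42 and 2.13 to 8.71 and 9.89 CPM (2.36 ± 0.31; adjusted p = 0.14 with voom quality weights, where the call was lost) and Atf3 fell from 20.1 and 19.6 to 5.20 and 6.54 CPM (-1.75 ± 0.17).

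The basement membrane, cathepsin and remodeling genes moved little as groups. Of 15 basement membrane genes 3 agreed higher and 1 lower, with a median of 0.25 that was -0.07 without Day 2 replicate 1 and 0.58 without replicate 2. Sparc, a matrix glycoprotein, rose from 179.5 and 190.1 to 679.6 and 753 CPM (1.95 ± 0.10), Col4a1 from 242 and 422 to 910.3 and 842 CPM, and Col18a1 fell from 996 and 1247 to 571 and 555 CPM. Of 14 cathepsins and cystatins tested of 15, 2 agreed higher, none lower, with a median of 0.42, and 5 were called higher without Day 2 replicate 1. Ctsb rose from 255 and 227 to 396 and 406 CPM (0.73 ± 0.10, adjusted p = 3.5e-04). Ctsl itself had a log2 fold change of 0.48 ± 0.14, under the 1.5-fold limit, and was called without Day 2 replicate 1 (0.69) and with length offsets (0.62, adjusted p = 3.1e-04). Of 21 subunits of the BAF and PBAF chromatin remodelers tested of 22, 2 agreed higher and none lower, with a median of 0.15, and 6 were called higher without Day 2 replicate 2. Dpf3, a heart and muscle subunit, rose from 0.554 and 0.639 to 2.98 and 3.10 CPM (2.32 ± 0.28), and Smarca2, the ATPase BRM, from 29.8 and 31.8 to 56.0 and 59.97 CPM (0.91 ± 0.14). Smarca4, the ATPase BRG1 of mESCs, was at 669 and 583 CPM on Day 2 and 570.2 and 592 CPM on Day 4 and was not called.

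Genes of the G1 phase and of metabolism changed in part. Of 15 G1 genes, 3 agreed higher and 1 lower, with a median of 0.34. The inhibitor Cdkn1a, which encodes p21, rose from 47.0 and 47.0 to 117 and 125 CPM (1.36 ± 0.14, adjusted p = 7.5e-05) with equal Day 2 libraries, Cdkn2b rose from 16.7 and 12.3 to 30.2 and 34.2 CPM, and Ccne1, cyclin E1, fell from 94.0 and 75.0 to 42.5 and 45.8 CPM. Of 21 glycolysis genes, none was called higher, 9 were called lower and 4 agreed, with a median of -0.65. Without Day 2 replicate 1 the count called lower was 6, and without replicate 2 it was 13. Slc2a1, the glucose transporter GLUT1, fell from 654 and 698 to 285 and 283 CPM (-1.25 ± 0.13), the lactate exporter Slc16a3 from 42.4 and 31.2 to 14.6 and 14.6 CPM, and the aldolase Aldoc from 22.5 and 16.6 to 7.09 and 7.33 CPM. All 17 cholesterol genes tested of 18 had negative log2 fold changes, with a median of -0.40, and 3 were called but none agreed.

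The counts in lists of short transcripts depended on which Day 2 library was used. Of 80 ribosomal protein genes tested of 81, 3 agreed lower and none higher, with a median of -0.39, but the median was -0.81 against Day 2 replicate 1 and 0.17 against replicate 2. Without replicate 2, 57 were called lower, and without replicate 1, 7 were called higher and 4 lower. Rps2, a protein of the small subunit, was at 255 and 172 CPM on Day 2 and 98.6 and 123 CPM on Day 4, and its call was lost without Day 4 replicate 1 (-0.80, adjusted p = 0.097). Of 69 genes of the histone clusters, 24 were tested, none agreed higher and 1 lower. Their median was -0.69 in shCTSL and 0.76 in shSC, and in shCTSL it was -1.34 against Day 2 replicate 1 and 0.21 against replicate 2. Clustered histone mRNAs mostly lack a poly(A) tail, and the libraries were made from poly(A) RNA. Of the 11 genes of histone variants 1 agreed lower, Cenpa, the histone of centromeres, from 194 and 113 to 61.7 and 71.4 CPM, and none was called higher, whereas without Day 2 replicate 1, 3 were called higher, and without replicate 2, 5 were called lower.

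**Figure D5:**
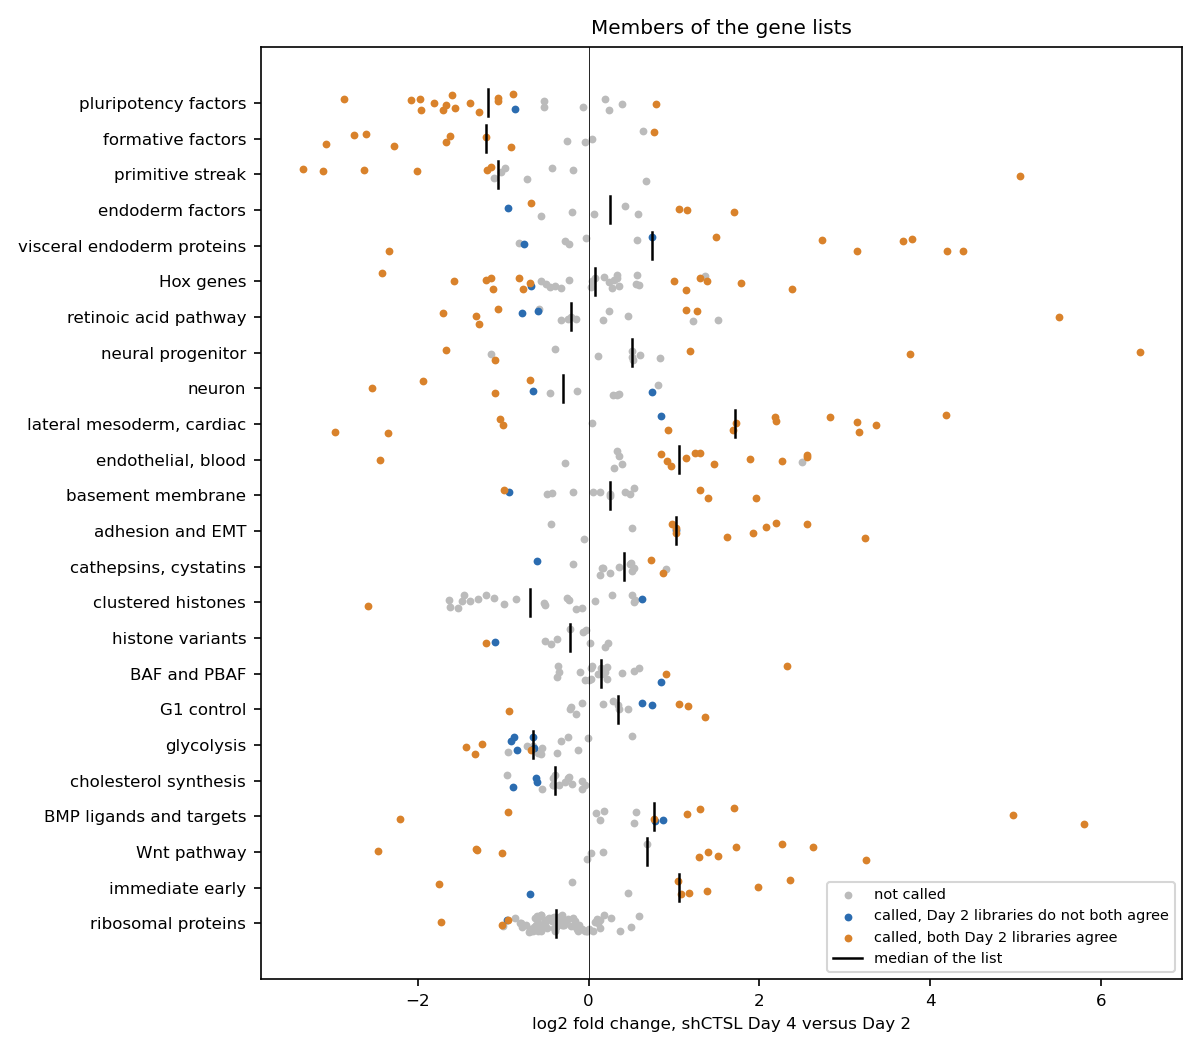
Log2 fold change, shCTSL Day 4 versus Day 2, of each gene tested in 24 lists; orange points are called and agreed on by both Day 2 libraries, blue points are called without that agreement, grey points are not called, and bars are list medians. The pluripotency and formative lists lie mostly left of 0, the lateral mesoderm and endothelial lists mostly right of 0, and the ribosomal protein genes lie mostly left of 0 with few calls.

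Fewer members of the lists were called with voom quality weights and with the 4 libraries alone, under which 1255 and 1201 of all genes were called. The Hox genes called went from 6 higher and 9 lower to 1 and 7 with the weights and to 3 and 4 with the 4 libraries. Lateral mesoderm and cardiac genes called higher went from 11 to 7 and 8, visceral endoderm proteins from 8 to 4 and 6, BMP genes from 8 to 4 and 4, and Wnt genes from 7 to 3 and 6. Neuron genes called lower went from 5 to 1 and 1, glycolysis genes from 9 to 7 and 3, and G1 genes called higher from 5 to 2 and 2. Pluripotency genes called lower went from 15 to 14 and 11, formative genes from 8 to 6 and 5, and adhesion and transition genes called higher from 10 to 9 and 7.

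The same step in shSC called 3689 of 15532 genes (23.8%), 1769 higher (11.4%) and 1920 lower (12.4%). The lines share no library here. Of the 2800 genes agreed in shCTSL, 2319 (82.8%) were also called in shSC in the same direction, which is 62.9% of the genes called there, and none was called in the opposite direction. Whether that step differed between the lines, tested as an interaction over all 12 libraries, was called by edgeR for 0 genes (smallest adjusted p = 0.32), and 753 genes (4.85%) had an unadjusted p under 0.05. DESeq2 called 11. Among genes agreed in shCTSL, those with the largest interaction values included Sorcs1, at 0.123 and 0.0851 rising to 0.541 and 0.590 CPM against 0.398 and 0.394 and 0.265 and 0.208 CPM in shSC, and Nkain3, with no read on Day 2 and 55 reads on Day 4, at least 18.8-fold higher. At the other end were Rn45s, at 32520.2 and 4994 falling to 3426 and 2048 CPM against 1529.8 and 6603 and 13877 and 9858 CPM in shSC, and Mir6236, at 2122 and 288 falling to 186 and 98.9 CPM. The calls of Rn45s and Mir6236 were lost without Day 2 replicate 1, at log2 fold changes of -0.89 and -1.04, and also without either Day 4 library. The replicate block ended both calls as well (adjusted p = 0.051 and 0.058), as did voom quality weights and fits of the 4 or the 8 libraries. Mir6236 followed Rn45s across the libraries, and their reads may not be separable.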

How the data were processed

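The authors made poly(A) RNA-seq libraries with a directional kit, used STAR 2.3.0e for alignment to mm9, dropped low mapping quality, mitochondrial and non-chromosome alignments with SAMtools 0.1.19, and deposited unnormalized read counts per RefSeq gene from featureCounts 1.6.2 for 24495 genes; their strand setting is not given in these sources. Labels gave the groups, with libraries labelled scr taken as shSC and those labelled KD as shCTSL. Members and gene lists were chosen with earlier results of these data known.

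All 12 libraries were fitted together in edgeR 4.0.16 (R 4.3.3) with the quasi-likelihood test, TMM normalization and 1 mean for each group, on the 15532 genes kept by filterByExpr at a minimum count of 10, leaving 6 residual degrees of freedom. Log2 fold changes carry a standard error of the fit, derived from the F statistic of the quasi-likelihood test. All groups share the estimate of spread, so these errors and p-values may understate the difference between the shCTSL Day 2 libraries. The p-values were adjusted over all genes by the Benjamini-Hochberg method. The authors' cutoff is worded as a log2 fold change of 1.5X; it was read as 1.5-fold, with 1.5 on the log2 scale as an alternative. Agreement used log2 CPM with 0.5 added. CPM are counts scaled by library totals and TMM factors, with 2 libraries a group, so their spread is known poorly; counting intervals and the floor of 3 reads cover counting error only.

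Named genes were the 12 highest and 12 lowest agreed changes with a mean of at least 5 CPM (predicted loci left out), up to 5 agreed members of each list per direction and 3 not called, genes that the study names, the 6 largest differences between the Day 2 libraries, and the 5 highest and 5 lowest interaction values, of which the text takes a part; Tal1, Fli1, Emcn, Cldn6, Grhl2 and the genes of the closing section that are not among these were chosen after their values were seen. Some genes that the rule takes are not reported here. Exon lengths and positions come from GENCODE M1 (mm9), which matched 20561 genes on the symbol and 1665 on a synonym, and promoters from RefSeq (GRCm38.p6), where 11778 of the genes tested were found. The labels do not say whether replicate numbers pair the libraries. The deviations of same-numbered shCTSL Day 2 and Day 4 libraries correlated at -0.30. These groups carry opposite trends by exon length, so that value cannot decide whether the libraries were paired. Alternatives were RLE normalization, DESeq2 1.42.0, limma-voom (limma 3.58.1) with quality weights, other filters and cutoffs, the 4 libraries alone, length offsets, a replicate block and each library left out. Figures were drawn with matplotlib 3.10.9.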

Additional observations from a re-analysis of the deposited data

How the results depend on the processing

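The number of genes called between Day 4 and Day 2 in shCTSL was within 1.5 times of 3630 under most alternatives: 3598 with RLE normalization, 3530 with DESeq2, 4019 without a filter, 3502 with at least 1 CPM in 2 libraries, 4609 without a fold cutoff, 3834 with length offsets and 3069 with the 8 Day 2 and Day 4 libraries. It was lower with the 4 libraries alone (1201, 648 higher and 553 lower), with voom quality weights (1255, 525 and 730), which were 0.120 and 0.118 for the Day 2 libraries against 1.13 to 2.13 elsewhere, and with a log2 fold change of at least 1.5 (1312, 727 and 585). With each shCTSL Day 2 or Day 4 library left out in turn it ran from 2346 to 6213, with 1156 to 3243 higher and 1190 to 2970 lower, highest without Day 2 replicate 2 and lowest without Day 4 replicate 1. The agreed count of 2800 was 1704 when a 2-fold change against each Day 2 library was asked for, and 2668 to 3030 under the other 3 alternatives; 2605 of the agreed genes were called by DESeq2, 2738 with length offsets and 1200 with the 4 libraries alone. The interaction count of 0 was 11 with DESeq2, and 0 to 2323 with a library left out (567 without Day 2 replicate 1, 2323 without replicate 2, 0 without any other Day 2 or Day 4 library); with the 4 libraries alone it has no value.

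The labels state no pairing of the replicates, and the main fit used none. With the replicate block 3409 genes were called, 1638 higher and 1771 lower, and with the shCTSL Day 4 numbers crossed, added after the data were seen, 3620; the interaction count stayed at 0 in both. Among the genes named the block ended the calls of Rn45s and Mir6236 and no other.

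Of the 132 genes named, 114 were called. The call was lost for 27 with voom quality weights, 22 with the 4 libraries alone and 41 with a log2 fold change of at least 1.5, and for at most 6 under any other alternative. Lost with both the weights and the 4 libraries were Emcn, Fli1, Foxa2, Grhl2, Hnf4a, Klf5, Mir6236, Nkx2-5, Rn45s, Rps2 and Sorcs1. Lost with the weights but not the 4 libraries were Actc1, Bmp6, Dpf3, Eomes, Erg, Evx1, Fos, Grem1, Hoxa13, Hoxc6, Hoxd13, Kcnj2, Meox1, Neurog2 (not tested with the 4 libraries), Nkain3 and Rspo3, and with the 4 libraries but not the weights Ccne1, Cdkn2b, Cenpa, Col4a1, Crabp1, Ctsb, Dnmt3a, Hoxb13, Kdr, Sfrp5 and Stmn2. Direction changed for 3. With each shCTSL Day 2 or Day 4 library left out in turn, the log2 fold change of Cdh1 ran from -0.38 to 0.33 (positive without Day 2 replicate 2), that of Clcn5 from -0.73 to 2.88 (negative without Day 2 replicate 1 or Day 4 replicate 1, at -0.35 for the latter) and that of Pou3f1 from -0.19 to 0.090 (positive without Day 2 replicate 1 or Day 4 replicate 2), and Pou3f1 was at 0.015 with length offsets; none of these genes was called in the full fit. The causes were not tested. The low counts of Evx1, Grem1, Neurog2, Nkain3 and Sprr1a on Day 2 limit the size of their changes to an interval or a bound.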

Other observations

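The lines could be compared with 1 shCTSL Day 2 library at a time, a view chosen after the data were seen. Without replicate 1 the interaction was called for 567 genes and without replicate 2 for 2323, and of the genes called in both 65 went in the same direction and 102 in opposite directions. These fits share the shCTSL Day 4 and all shSC libraries, so they are not independent, and a lone Day 2 library is assumed to vary as the other groups do. The 65 are 11.5% of the former and 2.80% of the latter. Of the 18 endothelial and blood genes tested, Kdr, Tal1 and Sox18 were among them, each with a more positive change in shCTSL. For Kdr the interaction was 0.63 without replicate 1 and 1.68 without replicate 2 on the log2 scale, and for Tal1 it was 1.18 and 1.56. Zscan4a and Zscan4c, near-identical genes of a rare state of mESCs whose reads may be shared, were also among them.

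Pou3f1, a POU factor of the primed state and of early neural cells, was 1 of the 11 genes called by DESeq2 for the interaction. It was at 2.58 and 2.13 CPM on Day 2 and 2.49 and 2.07 CPM on Day 4 in shCTSL, and at 1.63 and 2.10 and 6.89 and 5.20 CPM in shSC. Both shSC Day 4 libraries were above every other value, and the interaction was -1.65 without Day 2 replicate 1 and -1.92 without replicate 2. Adam12, a metalloprotease of mesenchyme, and Lpl, lipoprotein lipase, were called by DESeq2 with a more positive change in shCTSL.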
